A study of Homo sapiens with 4 samples.

Results

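The DNA replication machinery was followed here through 50 genes chosen by name, of 18417 genes measured on the arrays. They encode the replicative helicase and its loaders, the DNA polymerases, the sliding clamp, and the enzymes that supply nucleotides and rebuild chromatin behind the fork. All 50 were measured, each by a single probe set that carries no other gene symbol. By their labels the arrays hold RNA of PC3 cells, an established prostate cancer line first taken from bone. Every signal, called a level below, is a log2 value as deposited. PDEF-PC3 cells are described as over-expressing PDEF, an ETS transcription factor whose gene is SPDEF. VC-PC3 cells are described as carrying the empty pBABE vector and are labelled PC3-SCR. Each group has 2 arrays, and both groups were grown in the same serum-containing medium. The cells were stably transfected, and whether a line is 1 clone or a pool is not given in the sources used here. Nor does any source say that the arrays of a group come from separate cultures, so the p-values speak for the spread among these arrays alone, and that spread may be technical.

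The labels were first set against the signals. SPDEF gave log2 levels of 6.85 and 6.73 in PDEF-PC3, against 5.99 and 6.06 in VC-PC3, a log2 fold change of 0.77. CTNNA1, known from other work to be deleted from both chromosomes in PC3 cells, gave log2 levels of 9.76 and 9.86 in PDEF-PC3, against 4.77 and 4.07 in VC-PC3. STAT3, also known to be deleted there, showed log2 levels of 9.06 and 9.05 in PDEF-PC3, against 4.51 and 4.70 in VC-PC3. The signals of the arrays labelled PDEF-PC3 thus go against PC3 cells alone, and PDEF expression and another origin of the cells cannot be told apart in any difference below. Background was gauged by 341 olfactory receptor genes, few of which are transcribed in any epithelium, although some are in prostate. Their maximum was 5.65 and 5.75 in PDEF-PC3, against 5.94 and 6.01 in VC-PC3, and their 95th percentile was 4.49 and 4.42 in PDEF-PC3, against 4.58 and 4.54 in VC-PC3. The maximum may hold real signal, so a level under it is uncertain rather than absent. The VC-PC3 levels of SPDEF lay just above the maximum of their arrays. Over all genes, 24% were called lower in PDEF-PC3, the share to set beside the marker counts that follow. Of 5 epithelial genes 3 were lower, with summed log2 signals of 35.15 to 35.89 in PDEF-PC3 against 40.09 to 40.28 in VC-PC3. KRT19 gave log2 levels of 5.85 and 5.57 in PDEF-PC3, against 7.84 and 7.67 in VC-PC3, and EPCAM gave 5.65 and 6.53 in PDEF-PC3, against 7.81 and 7.74 in VC-PC3. KRT8 fell by 0.64 log2 units and KRT18 was not called, while CDH1 lay between the 95th percentile and the maximum in all 4 arrays. None of 3 prostate luminal genes measured was called (sums of 15.54 to 15.74 in PDEF-PC3 against 15.79 to 16.01 in VC-PC3), and HOXB13 lay above the maximum in all 4 arrays while KLK3 and KLK2 lay under it. No marker of another cell type listed was called higher. Of 6 fibroblast genes 3 were lower, with summed log2 signals of 28.32 to 28.71 in PDEF-PC3 against 31.46 to 32.55 in VC-PC3, and COL1A1 was above the maximum in all 4 arrays, the other 5 in none. Of 4 leukocyte genes measured 1 was lower (sums of 16.86 to 17.12 in PDEF-PC3 against 19.41 to 19.47 in VC-PC3). This was CD68, at 7.31 and 7.41 in PDEF-PC3 against 9.60 and 9.48 in VC-PC3, and the other 3, PTPRC among them, lay under the 95th percentile in all 4 arrays. Of 4 endothelial genes 3 were lower (sums of 17.17 to 17.42 in PDEF-PC3 against 20.29 to 21.08 in VC-PC3), and KDR, at 4.78 and 4.87 in PDEF-PC3 against 6.95 and 7.15 in VC-PC3, was the only one above the maximum in any array. The part of these cell types in the results was not tested.

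Chromosomes are copied from many origins. The origin recognition complex marks each one, CDC6 and CDT1 load the ring of MCM2 to MCM7 onto it, and the kinase CDC7 with DBF4, together with CDC45 and the GINS complex, turns the ring into an active helicase. Primase and the polymerases then build the new strands while PCNA, set down by the RFC complex, holds the polymerases on DNA. Most of these genes are transcribed at the border of the G1 and S phases under E2F factors, so their RNA is abundant in dividing cells, cultured cancer lines among them.

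Transcripts of the replication machinery were broadly higher in PDEF-PC3 than in VC-PC3 cells. Of the 50 genes, 41 rose, 1 fell and 8 were not called at an adjusted p under 0.05 from limma. In the same fit, 26.7% of all genes were called higher, 24% were called lower and 49.3% were not called. The median log2 fold change was 1.10 for the replication genes, a 2.14-fold higher level, and -0.05 for all genes. At least 2-fold rises were found for 28 of the 50, where 8.67% of all genes rose that far. Both PDEF-PC3 arrays lay above both VC-PC3 arrays for 43 of the 50 genes, as they did for 35% of all genes, and lay below both for 5, as for 39.7% of all genes. The arrays of 1 group differed by at most 0.34 for any of the 50 genes in PDEF-PC3 and by at most 0.30 in VC-PC3. The replication genes were brighter than most, with array medians of 9.08 and 9.11 in PDEF-PC3, against 7.90 and 7.91 in VC-PC3, while the medians of all genes were 6.21 in both PDEF-PC3 arrays and 6.14 in both VC-PC3 arrays. When the fit was limited to the 9208 genes above the median level, 42.7% of them were called higher. In bulk RNA, more cells in S phase and more transcript per cell cannot be told apart.

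**Figure D1:**
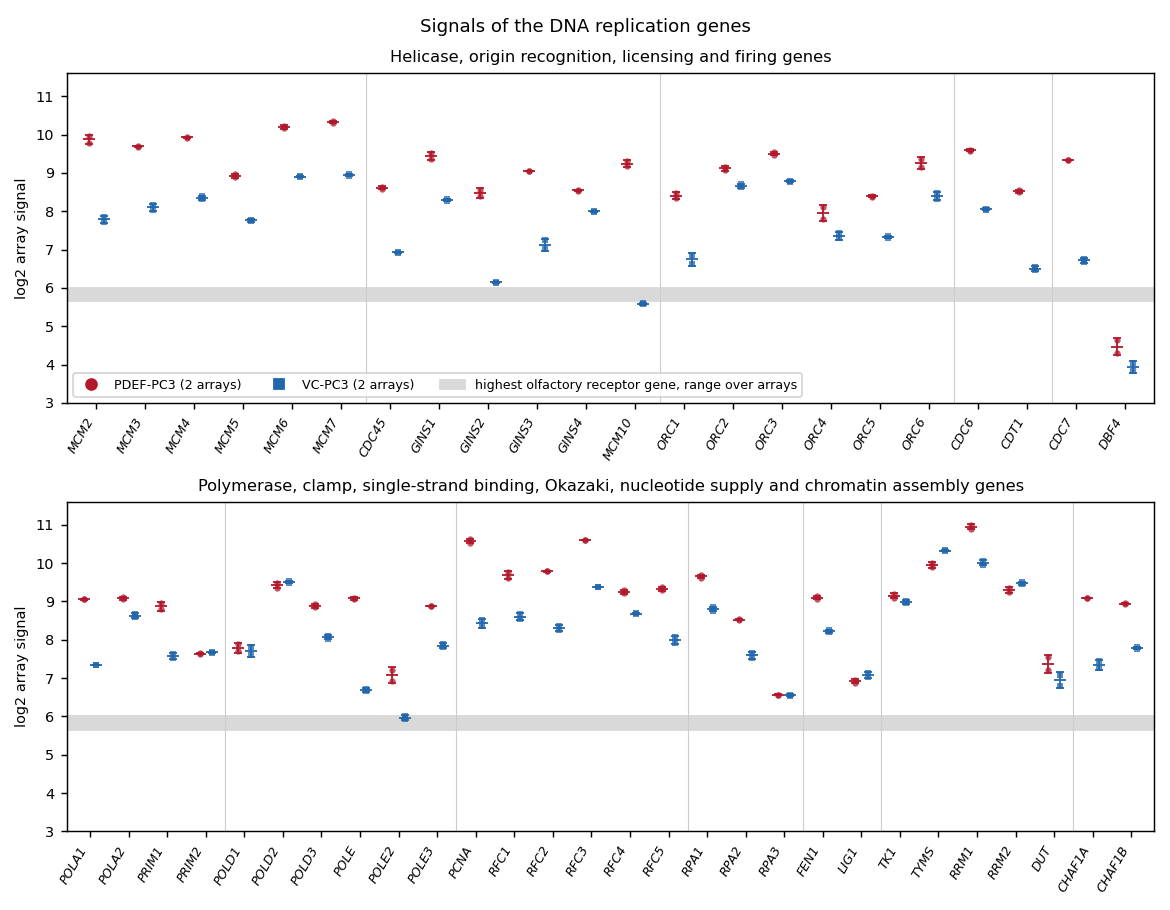
Log2 array signal (vertical axis) of each of the 50 replication genes (horizontal axis, grouped by role) in the PDEF-PC3 arrays (circles) and the VC-PC3 arrays (squares), lines being group means and bars SDs of 2 arrays; the grey band is the highest olfactory receptor gene, 5.65 to 6.01 over the arrays. PDEF-PC3 points lie above VC-PC3 points for 43 genes, among them MCM10 at 9.18 and 9.30 against 5.61 and 5.57, while DBF4 lies under the band in every array.

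The promoters of these genes were also searched for letters that transcription factors bind, those of the cell cycle among them. RefSeq promoters (assembly GRCh38.p14, 250 bases before to 50 after the first start listed for a gene) were matched for 44 of the 50 genes. They were not matched for MCM4, MCM5, GINS4, POLD3, RPA2 and RPA3. An E2F site was taken as the letters TTTCCCG, and likewise TTTCGCG, and likewise TTTGCCG, and likewise TTTGGCG, on either strand, and overlapping matches were counted separately. Such letters stood in 20 of 36 promoters of genes that rose (55.6%) and in 2 of 8 promoters of the others, LIG1 and TYMS, against 8.69% of 27305 promoters in all and 11.1% of the 14239 promoters of genes measured on the arrays. At least 2 matches stood in 8 of the 36, those of MCM2, MCM3, MCM6, MCM7, CDC6, CDT1, POLA2 and POLE2, against 0.689% of all promoters and 1.01% of those of measured genes. CCAAT, the box of the factor NF-Y, stood in 21 of the 36 (58.3%), in 35.7% of all promoters and in 36.3% of those of measured genes. The E-box CACGTG was in 5 of the 36, in 7.43% of all promoters and in 8.88% of those of measured genes. The ETS letters CCGGAAG were in 4 of the 36 (11.1%), in 10.7% of all promoters and in 14.6% of those of measured genes. CCGGATG, which holds the GGAT core that PDEF prefers among ETS factors, was in the promoters of MCM3 and CDC6, which is 5.56% of the 36, in 2.6% of all promoters and in 3.13% of those of measured genes. A match is a description of the letters and does not show that a factor binds there. Most of the 50 genes were already known to be transcribed under E2F factors. Their excess of E2F letters over all promoters could thus be foreseen from the choice of genes and says nothing about these arrays. The difference between genes that rose and the others was not tested.

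The 120 bases before the start are shown for 6 genes that rose, chosen after their letters were seen because this stretch holds an E2F match, and for TYMS, the gene that fell, for contrast. They lie in GRCh38.p14 at chr2:135876444-135876563 on the minus strand for MCM6, chr16:88803669-88803788 on the plus strand for CDT1, chr12:132687343-132687462 on the minus strand for POLE, chr16:85688955-85689074 on the minus strand for GINS2, chr22:19479800-19479919 on the plus strand for CDC45, chr17:40287759-40287878 on the plus strand for CDC6 and chr18:657533-657652 on the plus strand for TYMS. Each is read 5′ to 3′ on the strand of its gene, with E2F letters in capitals.
MCM6: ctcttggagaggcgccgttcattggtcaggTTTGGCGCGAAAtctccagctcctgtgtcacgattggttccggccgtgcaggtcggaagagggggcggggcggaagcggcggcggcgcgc
CDT1: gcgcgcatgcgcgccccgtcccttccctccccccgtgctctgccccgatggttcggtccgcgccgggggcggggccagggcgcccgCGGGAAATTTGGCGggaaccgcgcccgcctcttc
POLE: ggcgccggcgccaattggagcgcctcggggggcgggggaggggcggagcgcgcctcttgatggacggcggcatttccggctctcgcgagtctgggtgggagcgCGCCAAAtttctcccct
GINS2: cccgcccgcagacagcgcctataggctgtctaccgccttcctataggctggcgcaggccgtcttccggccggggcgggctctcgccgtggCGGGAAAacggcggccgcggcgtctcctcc
CDC45: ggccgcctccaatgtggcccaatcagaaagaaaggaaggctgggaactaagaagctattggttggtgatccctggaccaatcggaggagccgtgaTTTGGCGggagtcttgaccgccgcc
CDC6: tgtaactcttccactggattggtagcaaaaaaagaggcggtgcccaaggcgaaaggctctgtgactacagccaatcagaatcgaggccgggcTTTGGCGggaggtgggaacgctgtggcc
TYMS: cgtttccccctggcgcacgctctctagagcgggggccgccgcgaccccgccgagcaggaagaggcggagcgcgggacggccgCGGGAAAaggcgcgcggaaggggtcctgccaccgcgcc
In MCM6 the capitals join 2 matches on opposite strands that overlap, and in CDT1 they join 2 that adjoin, also on opposite strands. CDC45 and CDC6 share the letters TTTGGCG, which also stand in MCM6 and CDT1 and, on the other strand, in POLE. TYMS holds CGGGAAA, the same letters as GINS2 and CDT1. In most genes that rose and had a matched promoter, MCM10, CDC7 and MCM2 among them, these 120 bases hold no E2F match. The longer promoters searched hold 1 match in MCM10 and 2 in MCM2, not wholly within these 120 bases, and no match in CDC7.

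**Figure D2:**
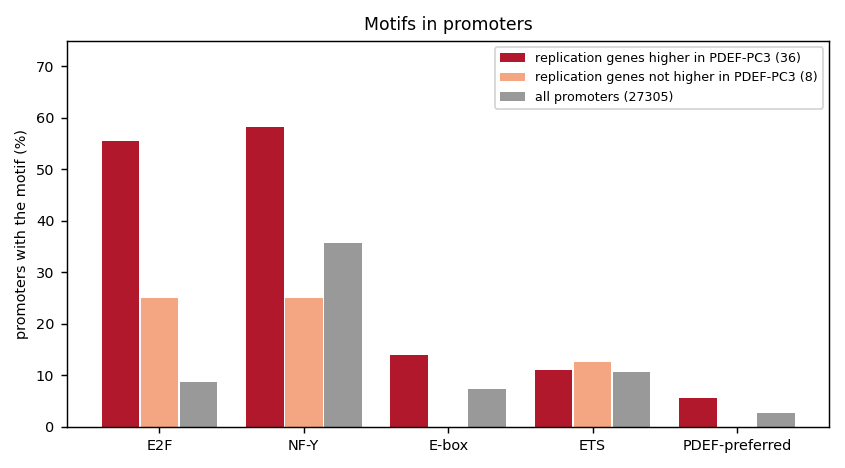
Share of promoters (vertical axis, percent) that hold each motif (horizontal axis) for the 36 replication genes higher in PDEF-PC3, the 8 replication genes that were not higher, and all 27305 promoters. The E2F bars stand at 55.6%, 25% and 8.69%, and the ETS bars at 11.1%, 12.5% and 10.7%.

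The helicase genes rose without exception. MCM2 to MCM7 encode the ring that unwinds DNA, and all 6 rose at least 2-fold, as did 8.67% of all genes. Their log2 fold changes were 1.16 to 2.09. MCM2 gave log2 levels of 9.96 and 9.79 in PDEF-PC3, against 7.73 and 7.85 in VC-PC3. It rose by 2.09 log2 units (standard error 0.099, limma adjusted p = 1.65e-05), or 4.24-fold. MCM5, with the smallest rise of the ring, gave log2 levels of 8.96 and 8.88 in PDEF-PC3, against 7.78 and 7.74 in VC-PC3. MCM3 showed log2 levels of 9.68 and 9.70 in PDEF-PC3, against 8.04 and 8.16 in VC-PC3. MCM4 showed log2 levels of 9.92 and 9.94 in PDEF-PC3, against 8.39 and 8.31 in VC-PC3. The log2 fold changes of MCM3, MCM4, MCM6 and MCM7 were 1.59, 1.58, 1.30 and 1.38. Both PDEF-PC3 arrays lay above both VC-PC3 arrays for all 6 genes, as they did for 35% of all genes.

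The genes that turn the loaded ring into a working helicase showed both the largest rise of the 50 and 1 of the small ones. MCM10, whose protein acts at the step of helicase activation, gave log2 levels of 9.18 and 9.30 in PDEF-PC3, against 5.61 and 5.57 in VC-PC3. It rose by 3.65 log2 units (standard error 0.087, adjusted p = 2.85e-06). Its VC-PC3 signals were under the olfactory receptor maximum of those arrays, though above the 95th percentile, so the size of the change and its order among genes are not exact. GINS2, a subunit of the tetramer that joins CDC45 and the MCM ring, showed log2 levels of 8.39 and 8.56 in PDEF-PC3, against 6.16 and 6.14 in VC-PC3. It rose by 2.33 log2 units (standard error 0.093, adjusted p = 9.02e-06). GINS3, of the same tetramer, showed log2 levels of 9.04 and 9.05 in PDEF-PC3, against 7.24 and 7.02 in VC-PC3, and rose by 1.92 log2 units (standard error 0.10, adjusted p = 2.40e-05). The other subunits rose less, GINS1 by 1.15 and GINS4 by 0.56. GINS4 showed log2 levels of 8.56 and 8.54 in PDEF-PC3, against 7.98 and 8.01 in VC-PC3. The 95% interval of GINS4, 0.36 to 0.75, does not reach that of GINS2, 2.10 to 2.55, although the difference between the subunits was not itself tested. CDC45 rose by 1.69 on the log2 scale, with log2 levels of 8.64 and 8.58 in PDEF-PC3, against 6.92 and 6.93 in VC-PC3.

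All 6 genes of the origin recognition complex rose, with a median log2 fold change of 0.79, where 26.7% of all genes were called higher. ORC1, the subunit whose level is known to cycle in human cells, gave log2 levels of 8.34 and 8.47 in PDEF-PC3, against 6.86 and 6.63 in VC-PC3. Its rise of 1.66 log2 units (standard error 0.11, adjusted p = 5.32e-05) was the largest of the complex. ORC5 rose by 1.07, ORC6 by 0.86 and ORC3 by 0.73. ORC4 showed log2 levels of 7.80 and 8.11 in PDEF-PC3, against 7.43 and 7.29 in VC-PC3. ORC2 showed log2 levels of 9.07 and 9.16 in PDEF-PC3, against 8.70 and 8.62 in VC-PC3. ORC4 and ORC2 rose by 0.60 and 0.46, with adjusted p values of 0.00785 and 0.00509. ORC4 did not pass the test without PDEF-PC3 replicate 2 or either VC-PC3 array (adjusted p = 0.0832 to 0.132 from limma). ORC2 did not pass without PDEF-PC3 replicate 2 or VC-PC3 replicate 2 (adjusted p = 0.0658 and 0.0558 from limma).

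Both loaders of the MCM ring rose at least 2-fold, as did 8.67% of all genes. CDT1 gave log2 levels of 8.49 and 8.55 in PDEF-PC3, against 6.46 and 6.55 in VC-PC3, and rose by 2.02 log2 units (standard error 0.085, adjusted p = 1.07e-05). CDC6, an ATPase that recruits CDT1 and the ring, showed log2 levels of 9.57 and 9.61 in PDEF-PC3, against 8.07 and 8.03 in VC-PC3, and rose by 1.54 on the log2 scale. Of the firing kinase, the catalytic subunit gene CDC7 had a log2 level of 9.33 in both PDEF-PC3 arrays, against 6.67 and 6.76 in VC-PC3. It rose by 2.62 log2 units (standard error 0.083, adjusted p = 4.47e-06), a 6.13-fold higher level. The gene of its activating subunit, DBF4, showed log2 levels of 4.31 and 4.63 in PDEF-PC3, against 3.83 and 4.04 in VC-PC3. All 4 DBF4 signals lay under the olfactory receptor maximum and 3 of them under the 95th percentile, and its rise of 0.54 (adjusted p = 0.0163) did not pass the test when any 1 array was left out (adjusted p = 0.0594 to 0.186 from limma).

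**Figure D3:**
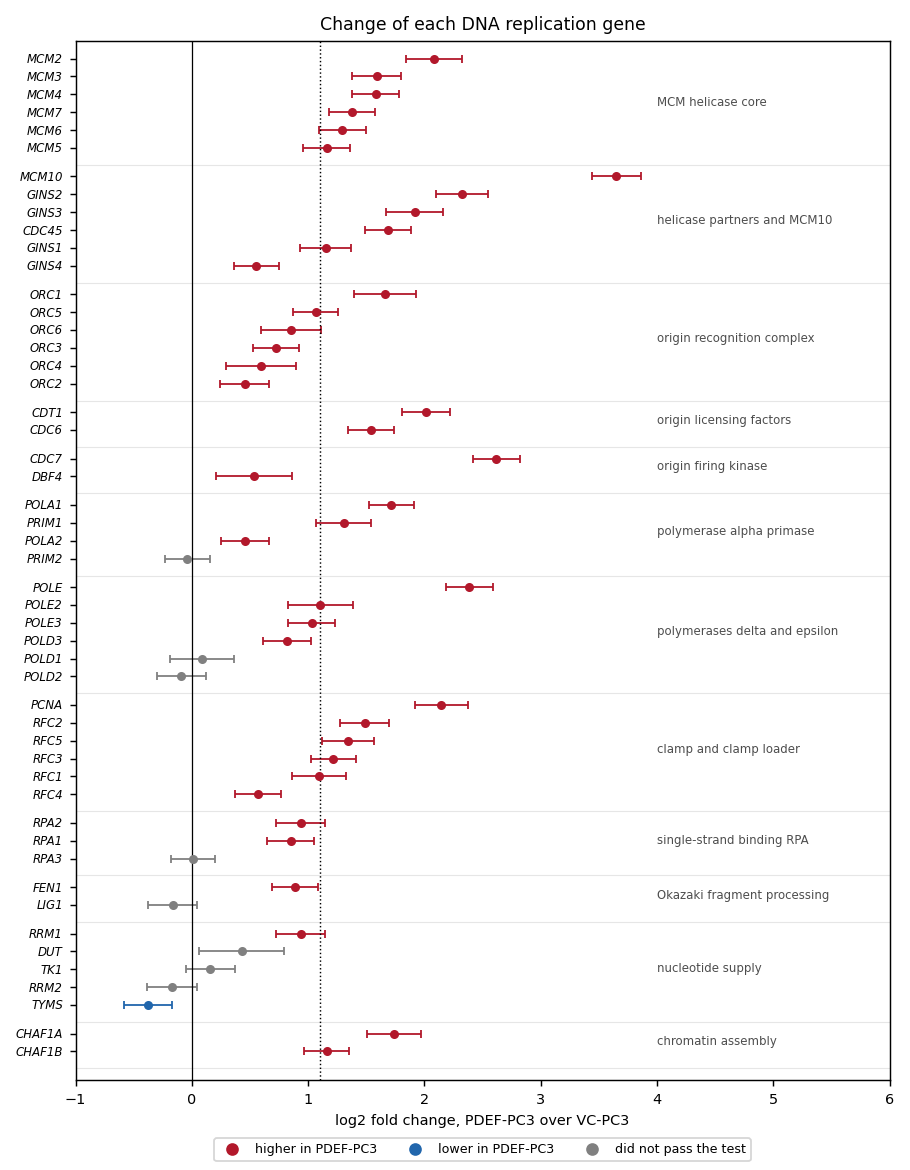
Change of each replication gene (vertical axis, grouped by role) as the log2 ratio of PDEF-PC3 over VC-PC3 (horizontal axis), with its 95% interval from limma as a bar and 2 arrays per group; the dotted line marks the median of the 50 genes, 1.10. The 41 genes that rose are red, up to MCM10 at 3.65, TYMS at -0.38 is blue, and the 8 that did not pass the test are grey.

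Subunits of 1 polymerase did not move alike. Polymerase epsilon makes the leading strand, and its catalytic subunit gene POLE gave log2 levels of 9.10 and 9.05 in PDEF-PC3, against 6.72 and 6.66 in VC-PC3. It rose by 2.39 log2 units (standard error 0.082, adjusted p = 5.71e-06), a 5.22-fold higher level. The accessory subunit genes POLE2 and POLE3 rose by 1.11 and 1.03, and 1 VC-PC3 signal of POLE2 (5.93) was under the olfactory receptor maximum. Polymerase delta makes the lagging strand, and its catalytic subunit gene POLD1 showed log2 levels of 7.88 and 7.70 in PDEF-PC3, against 7.81 and 7.59 in VC-PC3. These signals overlap, with a log2 fold change of 0.09 (95% interval -0.18 to 0.36, adjusted p = 0.543). POLD2, a further delta subunit, showed log2 levels of 9.47 and 9.36 in PDEF-PC3, against 9.48 and 9.53 in VC-PC3, a log2 fold change of -0.09 (95% interval -0.30 to 0.12). POLD3, a subunit through which delta contacts PCNA, showed log2 levels of 8.84 and 8.92 in PDEF-PC3, against 8.10 and 8.03 in VC-PC3, and rose by 0.82 on the log2 scale. The intervals of POLD1 and POLE, 2.19 to 2.59 for the second, lie far apart, and the difference between the genes was not itself tested.

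Polymerase alpha and primase start every new strand as 1 complex. POLA1, the catalytic subunit, gave log2 levels of 9.05 and 9.06 in PDEF-PC3, against 7.34 in both VC-PC3 arrays, and rose by 1.72 log2 units (standard error 0.079, adjusted p = 1.54e-05). PRIM1, the catalytic primase subunit, showed log2 levels of 8.79 and 8.95 in PDEF-PC3, against 7.62 and 7.51 in VC-PC3, and rose by 1.31 on the log2 scale. POLA2 rose by 0.46 on the log2 scale, with an adjusted p of 0.00476, and it did not pass the test when either PDEF-PC3 array was left out (adjusted p = 0.0522 and 0.0658 from limma). PRIM2, the large primase subunit, showed log2 levels of 7.62 and 7.64 in PDEF-PC3, against 7.68 and 7.66 in VC-PC3. Its log2 fold change was -0.04 (95% interval -0.23 to 0.15, adjusted p = 0.710 from limma).

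The clamp and all 5 subunits of its loader rose, where 26.7% of all genes were called higher. PCNA, a ring that tethers polymerases and many other proteins to DNA, gave log2 levels of 10.53 and 10.62 in PDEF-PC3, against 8.51 and 8.35 in VC-PC3. It rose by 2.15 log2 units (standard error 0.095, adjusted p = 1.29e-05), a 4.42-fold higher level. Of the loader, RFC2 rose by 1.49, RFC5 by 1.34, RFC3 by 1.22, RFC1, the large subunit, by 1.10 and RFC4 by 0.57. RFC4 showed log2 levels of 9.21 and 9.29 in PDEF-PC3, against 8.67 and 8.69 in VC-PC3.

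RPA coats the single strands that the helicase leaves. RPA2 gave log2 levels of 8.51 and 8.54 in PDEF-PC3, against 7.65 and 7.53 in VC-PC3, and rose by 0.94 log2 units (standard error 0.087, adjusted p = 0.000217). RPA1, the large subunit, showed log2 levels of 9.62 and 9.68 in PDEF-PC3, against 8.76 and 8.84 in VC-PC3, and rose by 0.85 on the log2 scale. RPA3, the small one, showed log2 levels of 6.56 and 6.57 in PDEF-PC3, against 6.57 and 6.54 in VC-PC3, a log2 fold change of 0.01 (95% interval -0.18 to 0.20). On the lagging strand, FEN1, the flap nuclease, showed log2 levels of 9.07 and 9.13 in PDEF-PC3, against 8.24 and 8.19 in VC-PC3, a rise of 0.89 log2 units (standard error 0.082, adjusted p = 0.000221). LIG1, the ligase that seals the fragments, showed log2 levels of 6.88 and 6.95 in PDEF-PC3, against 7.13 and 7.03 in VC-PC3. Its log2 fold change was -0.17 (adjusted p = 0.161 from limma), and after quantile normalization it was -0.27 (adjusted p = 0.0328, with a range of 0.0328 to 0.352 over all alternatives).

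Of 5 genes of nucleotide supply, 1 was higher, 1 was lower and 3 were not called, where 26.7% of all genes were called higher and 24% lower. The difference from the other role groups was not tested. RRM1, the large subunit of ribonucleotide reductase, gave log2 levels of 10.90 and 10.99 in PDEF-PC3, against 9.96 and 10.06 in VC-PC3. It rose by 0.94 log2 units (standard error 0.088, adjusted p = 0.000231). RRM2, the small subunit of the same enzyme, showed log2 levels of 9.24 and 9.36 in PDEF-PC3, against 9.44 and 9.50 in VC-PC3. Both PDEF-PC3 arrays lay below both VC-PC3 arrays, as they did for 39.7% of all genes. The log2 fold change of RRM2 was -0.17 (95% interval -0.38 to 0.04, adjusted p = 0.156 from limma). TYMS, thymidylate synthase, showed log2 levels of 10.00 and 9.90 in PDEF-PC3, against 10.34 and 10.31 in VC-PC3. It fell by 0.38 log2 units (standard error 0.085, adjusted p = 0.0106), and without PDEF-PC3 replicate 2 or either VC-PC3 array it did not pass the test (adjusted p = 0.0660 to 0.0766 from limma). TK1, a thymidine kinase, showed log2 levels of 9.19 and 9.10 in PDEF-PC3, against 9.02 and 8.95 in VC-PC3, and had a log2 fold change of 0.16 (95% interval -0.05 to 0.37). DUT, which clears dUTP, showed log2 levels of 7.20 and 7.54 in PDEF-PC3, against 7.09 and 6.79 in VC-PC3, with the widest spread of the 50 genes and a log2 fold change of 0.43 (adjusted p = 0.0543 from limma).

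Both subunit genes of chromatin assembly factor 1 that were listed rose, as did 26.7% of all genes. CHAF1A, which brings new histones to PCNA at the fork, gave log2 levels of 9.09 and 9.08 in PDEF-PC3, against 7.25 and 7.44 in VC-PC3, and rose by 1.74 log2 units (standard error 0.096, adjusted p = 2.86e-05). CHAF1B rose by 1.16 on the log2 scale, with 8.95 and 8.93 in PDEF-PC3, against 7.76 and 7.80 in VC-PC3. By chromosome the genes that rose were scattered, since the 36 with a matched promoter lie on 19 chromosomes.

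Further genes of the same pathway, outside the 50, also rose more often than they fell. Of 48 measured of 51 listed, 31 rose, 5 fell and 12 were not called, with a median log2 fold change of 0.53. Over all genes, 26.7% were called higher and 24% lower. TIPIN, a partner of TIMELESS that steadies the fork, gave log2 levels of 8.90 and 8.91 in PDEF-PC3, against 5.79 and 5.92 in VC-PC3, these last under the olfactory receptor maximum. It rose by 3.05 log2 units (standard error 0.087, adjusted p = 3.55e-06), a size that is not exact for that reason. ATAD5, which unloads PCNA, rose by 2.21, and DSCC1, of a second clamp loader, and GMNN, the CDT1 inhibitor geminin, rose by 1.98 each. POLD4, the small subunit of polymerase delta, showed log2 levels of 6.68 and 6.90 in PDEF-PC3, against 7.87 and 7.62 in VC-PC3, and fell by 0.96 log2 units (standard error 0.12, adjusted p = 0.000912). WDHD1, which links polymerase alpha to the helicase, fell by 0.68, and the helicase gene PIF1 fell by 0.60 on the log2 scale. RECQL4, another helicase gene, and POLE4, the small epsilon subunit, were the other 2 that fell, by 0.45 each. Among other genes of nucleotide supply, 4 of 10 measured rose and none fell. That share is near the 38.8% called higher among all genes above the median level. Among genes that copy chromatin, 7 of 9 rose and none fell.

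Other cell cycle genes were set beside these. Over all genes, 26.7% were called higher and 24% lower, and of those above the median level 38.8% were called higher. Of 21 mitosis and spindle genes measured, 15 rose and 2 fell, with a median log2 fold change of 0.41. Of 18 E2F factors, cyclins and partners, 14 rose and 3 fell, with a median of 0.73. CDC25A, the phosphatase that releases CDK2, rose by 3.07 and the cyclin gene CCNE2 by 2.18, both named after their values were seen. E2F1 rose by only 0.27. The 3 that fell were E2F5, E2F7 and RB1, with log2 fold changes of -0.75, -0.565 and -0.36. The differences between these lists and the 50 replication genes were not tested.

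**Figure D4:**
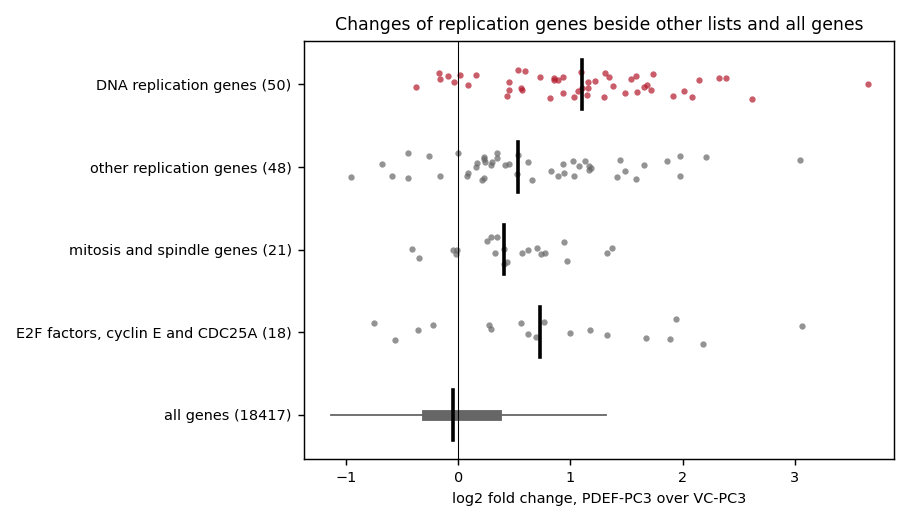
Changes as log2 ratios of PDEF-PC3 over VC-PC3 (horizontal axis) for single genes (points) in the 50 replication genes, 48 other replication genes, 21 mitosis genes and 18 E2F and cyclin genes (vertical axis), with each list's median as a bar, and for all 18417 genes the range of the 5th to 95th percentile (thin line) and of the 25th to 75th (thick line). The medians stand at 1.10, 0.53, 0.41, 0.73 and -0.05.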

How the data were processed

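The deposited values are log2 signals of 33297 probe sets of Affymetrix HuGene-1.0-st-v1 arrays. The submitters' notes name Transcriptome Analysis Console as the authors' software. Its version and the steps it ran, from background correction to normalization, are not stated, and the log base was inferred from the range of values. Array medians were 5.41 to 5.46, so a shift common to all genes may have been removed. No further scaling was applied.

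Gene names came from the platform annotation, with symbols updated from the GRCh38.p14 gene table. The 19460 probe sets with 1 symbol were used, and 1754 with several and 12083 unnamed ones were not used here. The probe set with the highest mean stood for a gene, which left 18417 genes with no filter on low signals.

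PDEF-PC3 was compared with VC-PC3 by limma 3.58.1 in R 4.3.3 (two-sided, 2 residual and 4.23 prior degrees of freedom), with Benjamini-Hochberg adjustment over all genes and calls at an adjusted p under 0.05. The fit was also run on simulated data, in which far fewer genes changed than were called here. That run does not vouch for these calls. With 2 arrays in each group, the smallest two-sided p of an exact permutation test is 0.333. Full statistics were given for the 8 largest called rises, called falls and the gene with the largest absolute change in each role group. For further replication genes, the 3 largest called changes in each direction were named, and ties with the third. The genes, lists and motifs were chosen with earlier results of these data known. Alternatives were quantile normalization, median centring, genes above the median level, the mean of all probe sets, an intensity trend, the replicate number as a block, and leaving out each array.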

Additional observations from a re-analysis of the deposited data

How the results depend on the processing

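Of the 50 replication genes, 40 kept both their direction and their side of the threshold under all 10 alternatives, 37 of them higher in PDEF-PC3. Higher calls numbered 40 to 42 under the 6 alternatives that kept every array and 37 to 39 with 1 array left out. Lower calls were 2 after quantile normalization and with an intensity trend, and 0 to 1 with 1 array left out. The median log2 fold change of the 50 was 1.04 with quantile normalization, 1.03 with median centring and 1.04 to 1.14 with 1 array left out. Genes with almost no difference changed sign without passing the test in any of these fits: POLD1 had -0.02 with quantile normalization and ranged over -0.02 to 0.20 with 1 array left out, and RPA3 had -0.09 with quantile normalization, -0.06 with median centring and a range of -0.005 to 0.03 with 1 array left out (negative for both without VC-PC3 replicate 2). DUT passed the test, toward higher, among genes above the median level (adjusted p = 0.0209 from limma) and with an intensity trend (adjusted p = 0.0192 from limma, range over alternatives 0.0192 to 0.363), and RRM2 passed toward lower with that trend (adjusted p = 0.0422 from limma, range 0.0422 to 0.363). With 1 array left out, the lone array of a group is assumed to vary like the others. The ranges were then 24 to 27 higher and 3 to 5 lower among further replication genes, 9 to 10 higher and 0 to 1 lower among mitosis genes, and 11 to 12 higher and 1 to 2 lower among E2F and cyclin genes. Over all genes they were 3010 to 3635 higher and 2326 to 2856 lower, the fewest in both directions without PDEF-PC3 replicate 2, against 4918 and 4419 with all arrays. The replicate numbers are shared by the groups, but nothing says that they pair the arrays, and deviations of same-numbered arrays had a correlation of 0.0221 over genes. With the replicate block, 40 of the 50 genes were higher and 1 was lower, and ORC4 did not pass the test (adjusted p = 0.0571 from limma, range 0.000788 to 0.132). With 2 arrays a group, small changes such as those of TK1, LIG1 and RRM2 could not be told from 0. Signals near the olfactory receptor maximum (MCM10, POLE2 and TIPIN in VC-PC3, DBF4 in both groups) limit the size of their changes. In VC-PC3, GINS2 (6.16 and 6.14), ATAD5 (6.10 and 6.11) and CCNE2 (6.12 and 6.03) lay just above that maximum, so the sizes of their rises are not exact either.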
